A study of Homo sapiens with 4 samples.

Results

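The 10 genes described here encode the peroxiredoxins PRDX1 to PRDX6, the superoxide dismutases SOD1 and SOD2, and the thioredoxins TXN and TXN2, enzymes and carriers that clear superoxide and peroxides. They were chosen by symbol, as the antioxidant enzymes with abundant and short mRNAs, and are 10 of the 23615 genes in the table. The comparison is between RNA that came down with SIRT7 in an RNA immunoprecipitation (RIP) and total RNA. RIP recovers a protein from a lysate together with the RNA bound to it, here on beads carrying an antibody to the Flag tag. Of the 4 libraries, 2 were SIRT7 RIP and 2 were input, the total cellular RNA. Both groups came from HEK293T, a human embryonic kidney line, that stably overexpressed Flag-SIRT7 and was used at passages 10 to 15, so the input carries the same construct as the RIP. Ribosomal RNA was removed from both kinds of RNA before strand-specific libraries were made. A pull-down from cells without the tag was not analysed here, so RNA that sticks to the beads is part of the RIP values. The labels do not say that replicates were separate cultures, so p-values measure only the spread between these libraries, which may be technical.

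Superoxide leaks from the respiratory chain and from oxidases, and superoxide dismutases turn it into hydrogen peroxide: SOD1, with copper and zinc, mainly in the cytosol, and SOD2, with manganese, in the mitochondrial matrix. Peroxiredoxins then reduce the peroxide at a reactive cysteine, and most of them are returned to their working form by thioredoxin, which takes its electrons from NADPH through thioredoxin reductase. PRDX1, PRDX2 and PRDX6 work mainly in the cytosol, PRDX3 in mitochondria, PRDX4 in the endoplasmic reticulum, and PRDX5 in mitochondria, peroxisomes and the cytosol, while TXN is the cytosolic and TXN2 the mitochondrial thioredoxin. SIRT7 is a nuclear and nucleolar deacylase, an enzyme that removes acyl groups from lysines.

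The RIP libraries held 25655455 and 25998032 fragments on genes and the input libraries 18131602 and 17310753. SIRT7 itself made up 3.41% and 3.35% of all fragments in the RIP libraries and 0.149% and 0.151% in the input libraries, and the counts do not separate the transgene from the endogenous gene. Of 10 genes known from the HEK293 lineage 7 reached 1 FPKM in at least one library, whereas PAX2, LHX1 and NEFH did not. The defining liver markers TTR and SERPINA1 and the blood markers CD3E and HBB were at 0 in every library. FPKM is the authors' value of fragments per transcript length, after their scaling of the libraries to each other by 1 factor per library. The summed FPKM of the 6 blood and immune markers was 3.09 and 4.20 in RIP, against 1.95 and 2.03 in input, and its part in the results was not tested.

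All 10 mRNAs were higher in RIP than in input on the TMM scale, which sets the middle of the gene distribution level between libraries, and all 10 passed the filter on low counts and the edgeR quasi-likelihood test at an adjusted p of 0.05. This is to be read against a background in which 38.0% of the 14555 tested genes were called higher and 39.7% lower, 77.7% in all. The rise ranged from 1.39-fold (SOD2) to 4.08-fold (PRDX5), with a median log2 fold change of 1.21, where the median over all tested genes was -0.03. The direction of PRDX3, PRDX6 and SOD2 depended on the scale: with library totals alone they were lower in RIP, and the other 7 stayed higher. On that scale 17.0% of all tested genes were called higher and 65.5% lower (82.6% together), and the median over all genes was -0.76, against 0.48 for the 10 genes. The libraries are bulk, and each value is a share of the RNA that was recovered. A rise or fall here compares RNA recovered with SIRT7 to total RNA of the same line, not expression between different cells.

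The summed share of the 10 genes was 0.401% (Wilson 95% interval 0.399% to 0.404%) and 0.402% (0.399% to 0.404%) in the RIP libraries, against 0.284% (0.281% to 0.286%) and 0.303% (0.3% to 0.306%) in input. The intervals cover counting error only, since fragments are not unique molecules. The groups did not overlap, but with 2 libraries a group the smallest two-sided p of an exact permutation test is 0.33, so the shares are given as values.

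TXN, the cytosolic electron donor of the peroxiredoxins, was the most abundant of the 10 per length in RIP, with 1253.5 and 1325.5 FPKM, against 399.1 and 447.4 FPKM in input. Next in RIP came SOD1 (1021.2 ± 47.7 FPKM), PRDX1 (889.9 ± 9.29), PRDX4 (681.1 ± 9.68), PRDX5 (676.0 ± 26.0) and PRDX2 (619.5 ± 5.10), all as mean ± SD of 2 libraries. PRDX3 (261.5 ± 6.82), PRDX6 (245.3 ± 8.01), TXN2 (168.4 ± 4.07) and SOD2 (107.1 ± 0.703) formed the lower end. Within RIP every neighbouring pair in this order was separated in both libraries except PRDX4 and PRDX5, whose values overlapped. Input had another order: PRDX1 led with 474.9 ± 30.1 FPKM, ahead of TXN (423.3 ± 34.1) and SOD1 (405.1 ± 9.69), and TXN2 was last with 57.92 ± 1.85. In input TXN overlapped with SOD1, PRDX3 with PRDX6, and PRDX6 with PRDX5.

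**Figure D1:**
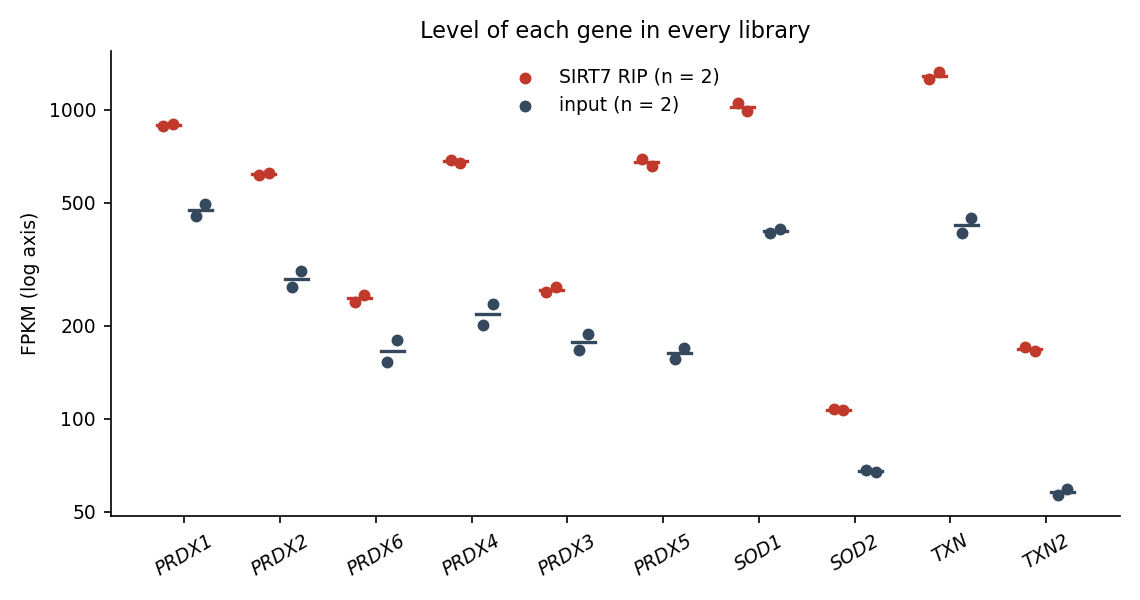
Level of each of the 10 genes in FPKM (log axis) in the 2 SIRT7 RIP libraries (red, left of each pair) and the 2 input libraries (dark, right); points are libraries and bars are group means. The RIP points lie above the input points for every gene on this scale (with library totals PRDX3, PRDX6 and SOD2 were lower in RIP), by the most for PRDX5 and by the least for PRDX3, PRDX6 and SOD2.

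All genes of the table were also ranked by their mean FPKM over the 2 libraries of a group. Scaling of RIP to input does not change such a rank, though scaling within a group can enter the mean. By rank the 10 genes parted. In RIP 4 of them stood higher than in input and 6 lower. PRDX5 was 242nd in RIP against 352nd in input, TXN2 770th against 1087th, PRDX4 237th against 266th and TXN 151st against 160th. PRDX1 was 205th in RIP against 152nd in input, SOD1 185th against 166th, PRDX2 253rd against 212th, PRDX3 521st against 322nd, PRDX6 553rd against 347th and SOD2 1140th against 935th. So 6 genes that were called higher on the TMM scale were placed lower in the ranking. Other genes called higher on that scale also moved both ways. FTL was 219th in RIP against 204th in input, and GPX4 236th against 286th. The share of all genes that moved down was not computed, so nothing particular to the 10 genes is read from these counts.

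PRDX1 and PRDX2 are the closely related peroxiredoxins of the cytosol. PRDX1 had 773.8 and 787.2 CPM, depth-scaled counts on the TMM scale, in RIP, against 405.3 and 436.0 CPM in input. Both RIP libraries lay above both input libraries, and the difference was 1.86-fold (0.89 ± 0.0692 SE on the log2 scale, edgeR adjusted p = 8.4e-09). Both RIP libraries stood above both input libraries in CPM for all 10 genes, as for 43.7% of all tested genes, and below them for 45.5% of all. PRDX2 had 529.8 and 537.4 CPM in RIP, against 234.8 and 259.1 CPM in input, again without overlap. Its rise was 2.16-fold (1.11 ± 0.0716 SE on the log2 scale, edgeR adjusted p = 9.11e-10). Set against each other per length, PRDX1 stood at 1.43 and 1.44 times PRDX2 in RIP and at 1.70 and 1.65 times PRDX2 in input, a ratio within each library that scaling between libraries does not touch.

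PRDX6, the single-cysteine peroxiredoxin, which is reduced by glutathione rather than by thioredoxin, moved less. It had 376.0 and 394.6 CPM in RIP, against 245.3 and 282.8 CPM in input. The groups did not overlap, and the rise was 1.46-fold (0.55 ± 0.0769 SE on the log2 scale, edgeR adjusted p = 8.78e-06). With library totals its log2 fold change was -0.18 (edgeR adjusted p = 0.0276). The 2 input libraries differed by up to 1.15-fold over the 10 genes, and the 2 RIP libraries by up to 1.07-fold.

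The organelle peroxiredoxins held both the highest and one of the lowest values. PRDX5 had 507.4 and 478.3 CPM in RIP, against 116.9 and 124.4 CPM in input. That was a 4.08-fold rise (2.03 ± 0.0726 SE on the log2 scale, edgeR adjusted p = 2.1e-12), at the 97.2nd percentile of all tested genes. PRDX4, the secretory pathway member, had 529.0 and 519.6 CPM in RIP, against 157.8 and 182.3 CPM in input, and rose 3.08-fold (1.62 ± 0.0778 SE on the log2 scale, edgeR adjusted p = 3.04e-11). PRDX3, the mitochondrial member that TXN2 reduces, had 379.3 and 394.6 CPM in RIP, against 253.1 and 280.3 CPM in input. Its groups did not overlap either, but the rise was only 1.45-fold (0.54 ± 0.0720 SE on the log2 scale, edgeR adjusted p = 5.03e-06), with a log2 fold change of -0.19 under library totals (edgeR adjusted p = 0.0153). PRDX5 was 2.71 and 2.47 times as abundant per length as PRDX3 in RIP, against 0.932 and 0.902 times in input, so the order of these 2 genes turned within the libraries.

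In the RefSeq annotation the span of PRDX5 overlaps that of TRMT112, which encodes a cofactor of RNA and protein methyltransferases. TRMT112 was also high, with 1093.1 and 1066.8 FPKM in RIP, against 290.8 and 329.2 FPKM in input, and a log2 fold change of 1.78. The libraries keep strand, but the strand setting of the counting is not given in the sources used here, so fragments of the shared stretch cannot be assigned to one gene with certainty. How far this touches the value of PRDX5 was not tested. PRDX1 overlaps MMACHC in the same annotation, but MMACHC was at 6.40 FPKM in RIP and 8.97 FPKM in input, far below PRDX1. RefSeq lists pseudogenes under the symbols of most of the 10 genes, up to 7 for TXN, and whether reads were shared with them is not known here.

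Of the superoxide dismutases, SOD1 had 860.8 and 807.4 CPM in RIP, against 332.3 and 337.5 CPM in input. This was a 2.49-fold rise (1.32 ± 0.0692 SE on the log2 scale, edgeR adjusted p = 8.5e-11). SOD2 had 107.5 and 109.5 CPM in RIP, against 79.11 and 77.03 CPM in input. The groups were apart, but the rise of 1.39-fold was the lowest of the 10 genes (0.47 ± 0.0695 SE on the log2 scale, edgeR adjusted p = 1.3e-05), and SOD2 was lower in RIP with library totals (-0.26, edgeR adjusted p = 0.00301). SOD1 was 9.81 and 9.27 times as abundant per length as SOD2 in RIP, against 5.81 and 6.11 times in input.

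SOD2 was also the only one of the 10 whose estimated transcript length differed clearly between groups. The length that the authors' program assigns to a gene follows the mix of transcripts it infers, and can be read from the table as scaled fragments over FPKM. For SOD2 it was 0.348 and 0.357 times that of the median tested gene in RIP, and 0.394 and 0.397 times in input. The log2 ratio of RIP to input was -0.163, while the other 9 genes were within 0.01 of 0. Of 14463 tested genes with a length in all libraries, 3.57% had a log2 ratio under -0.1. The log2 fold change of SOD2 was 0.65 on the log2(FPKM + 1) scale, which divides by that length, and 0.47 in CPM, which does not. In the RefSeq annotation SOD2 overlaps WTAP and ACAT2, at 60.7 and 65.2 FPKM in RIP and 70.8 and 59.1 FPKM in input, so both levels are of the size of that of SOD2, and the part of these neighbours in its values was not tested.

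Both thioredoxins rose on the TMM scale, and TXN2 had the lower level. TXN had 892.8 and 946.1 CPM in RIP, against 290.7 and 320.0 CPM in input, a 3.01-fold rise (1.59 ± 0.0738 SE on the log2 scale, edgeR adjusted p = 2.14e-11). TXN2 had 207.7 and 201.1 CPM in RIP, against 70.19 and 72.10 CPM in input, a 2.87-fold rise (1.52 ± 0.0698 SE on the log2 scale, edgeR adjusted p = 1.88e-11). Per length TXN was 7.32 and 8.01 times TXN2 in RIP, against 7.05 and 7.55 times in input, and these ranges overlap. After length correction the log2 fold change was 0.27 (SE 0.0722) for TXN and 0.63 (SE 0.0690) for TXN2. The within-library ratios of this and the other pairs were not tested, and the trend of fold change with length is not taken out of them.

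By compartment the genes did not separate. The 5 cytosolic genes (PRDX1, PRDX2, PRDX6, SOD1 and TXN) had log2 fold changes between 0.55 and 1.59 with a median of 1.11. The 4 genes with mitochondrial products (PRDX3, PRDX5, SOD2 and TXN2) lay between 0.47 and 2.03 with a median of 1.03. Both groups held genes near the bottom and near the top of the 10. PRDX4, alone for the endoplasmic reticulum, was second of all 10 on the TMM scale. After length correction the cytosolic genes lay between -0.28 and 0.27 with a median of -0.08. The genes with mitochondrial products then lay between -0.53 and 0.73 with a median of 0.23, so the ranges still overlapped. PRDX5 is counted here as mitochondrial, though it also works in peroxisomes and the cytosol.

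The mRNAs are short, and short mRNAs in general were high in RIP. Effective length, expressed relative to the median tested gene, lay between 0.248 (TXN) and 0.547 (PRDX6), so all 10 were shorter than the median, with 7 among the shortest decile of the tested genes and 3 in the next decile. They were abundant too, between the 92.6th (SOD2) and the 98.9th (TXN) percentile of tested genes by mean FPKM. Since they were chosen as short and abundant mRNAs, these values describe the choice. In the shortest decile 79.9% of all genes were called higher and 7.90% lower, and in the next decile 71.1% and 10.3%. Most genes of these lengths were thus called higher, and nothing particular to the 10 genes is read from their count. Over all 14555 tested genes the Spearman correlation of fold change with length was -0.60, and over the 10 genes it was -0.77. Genes of 1 library set share depth and scaling, so both are descriptions without a test.

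**Figure D2:**
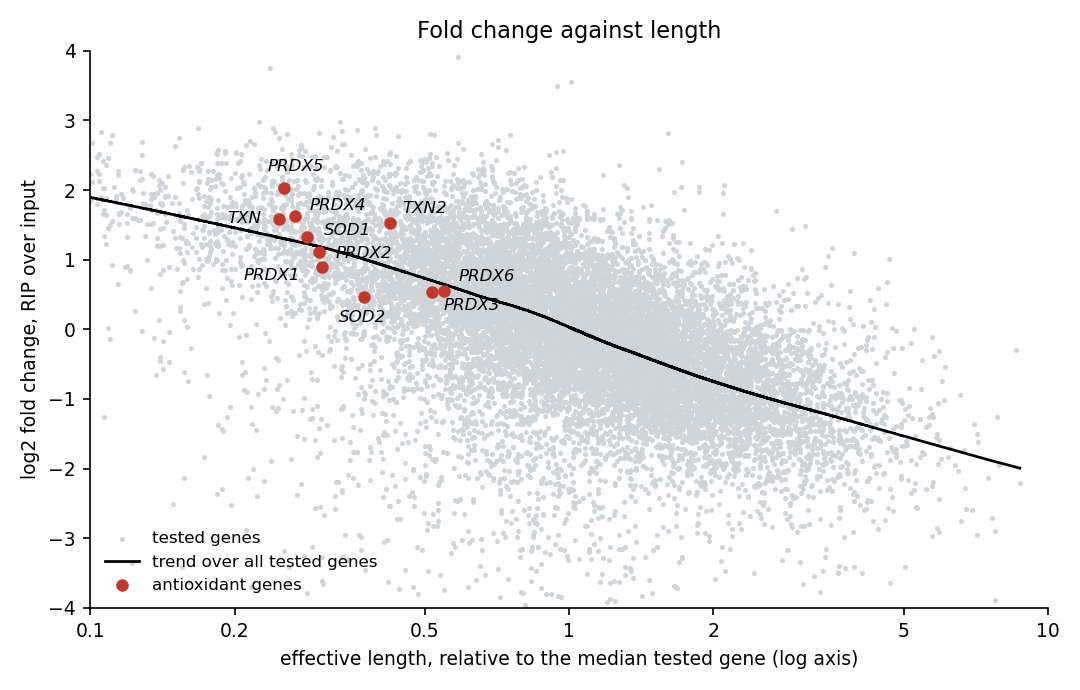
Log2 fold change of RIP over input on the TMM scale against effective length relative to the median tested gene (log axis), for tested genes (grey), their running trend (black line) and the 10 antioxidant genes (red). PRDX5 and TXN2 lie clearly above the trend and SOD2 below it, with the others nearer to the line; 132 tested genes fall outside the plotted range.

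Taking the length trend out of the fit, by offsets from a running curve through all genes, split the 10 genes. At their lengths the curve ran from 0.65 (PRDX6) to 1.32 (TXN) on the log2 scale, and 5 genes lay above it and 5 below. After the correction 4 genes were called higher, 2 lower and 4 neither, where 33.6% of all tested genes were called higher and 34.6% lower, or 68.2% together. PRDX5 (0.73 ± 0.0708 SE on the log2 scale, edgeR adjusted p = 2.65e-07), TXN2 (0.63, SE 0.0690, adjusted p = 9.32e-07), PRDX4 (0.36, adjusted p = 0.000659) and TXN (0.27, adjusted p = 0.00336) stayed higher. SOD2 (-0.53, SE 0.0695, edgeR adjusted p = 6.57e-06) and PRDX1 (-0.28, adjusted p = 0.00177) turned lower. PRDX2 (-0.08, adjusted p = 0.344), PRDX3 (-0.16, adjusted p = 0.054), PRDX6 (-0.10, adjusted p = 0.257) and SOD1 (0.09, adjusted p = 0.255) passed in neither direction. The median of the 10 was then 0.01, against -0.03 over all genes. Over the 10 genes the corrected fold change still had a Spearman correlation of -0.54 with length, against -0.77 before the correction. The split is thus not free of length among them, and this was not tested further. Of all tested genes PRDX5 was at the 84.2nd, TXN2 at the 81.0th and SOD2 at the 25.0th percentile of the corrected fold changes. The SOD2 value rests on its mean length over both groups.

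**Figure D3:**
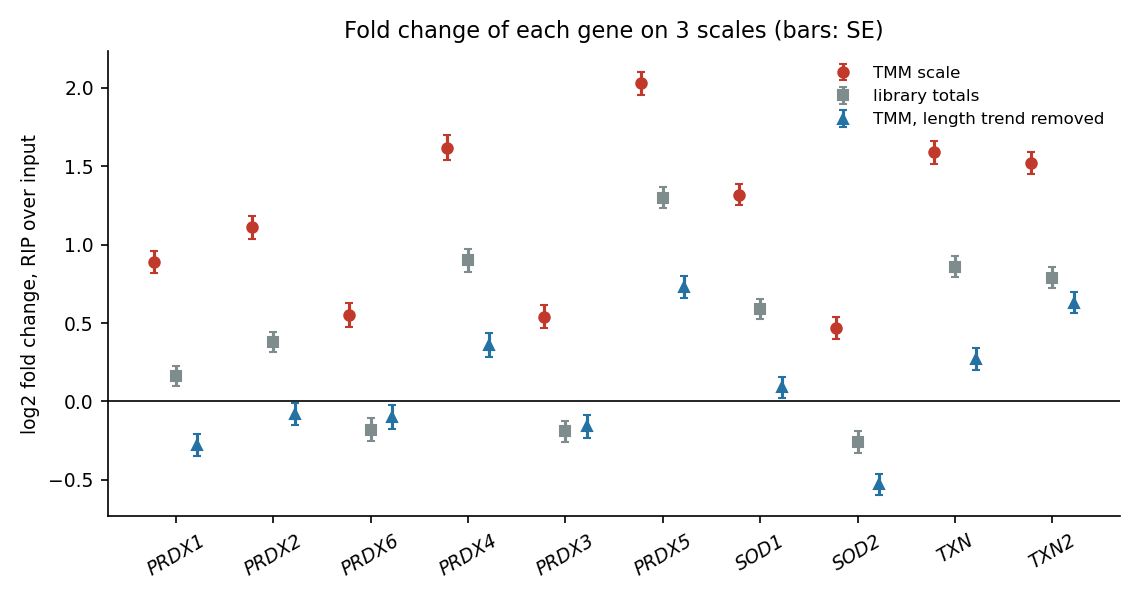
Log2 fold change of RIP over input for each of the 10 genes with its standard error (bars) on the TMM scale (red circles), with library totals (grey squares) and on the TMM scale with the length trend removed (blue triangles). PRDX5, TXN2, PRDX4 and TXN are above 0 on all 3 scales, while PRDX3, PRDX6 and SOD2 are above 0 on the first scale only.

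PRDX4, PRDX5, TXN and TXN2 were thus called higher in RIP on each of the 3 scales. They do not share a compartment or an enzyme class: 2 are peroxiredoxins and 2 are thioredoxins. PRDX3, PRDX6 and SOD2 were called in the opposite direction with library totals, and PRDX1, PRDX2 and SOD1 lost or reversed their call only with the length correction.

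RefSeq promoters (GRCh38.p14) were at hand for 6 of the 10 genes, PRDX2, PRDX3, PRDX4, PRDX5, SOD2 and TXN, in 10 windows of 300 bases, from 250 before to 50 after an annotated start. They are shown for what the genes have in common at the DNA level. The libraries measured recovered RNA and not promoter use. The GC box (GGGCGG, either strand) was found in all 10 windows and in 45.0% of the 35116 windows of all genes. The core letters of the antioxidant response element (TGACNNNGC, either strand), through which the factor NRF2 acts on many redox genes, were in none of the 10 windows and in 13.3% of all windows. The TATA box (TATAAA, either strand) was found in 1 of the 10 windows, that of TXN, and in 11.5% of all windows. Windows of the same gene are not independent, and SOD2 had 4 of them and PRDX5 2. Counted by gene, the GC box was in 6 of the 6 and in 48.3% of 27305 genes. The response element core was in 0 of the 6 against 16.1% of genes, and the TATA box in 1 against 14.0%. The 150 bases before the start are printed for the 4 genes with a single window, 5′ to 3′ on the gene's strand, with GC boxes and TATA boxes on either strand in capitals.
PRDX2 (chr19:12801801-12801950, minus strand): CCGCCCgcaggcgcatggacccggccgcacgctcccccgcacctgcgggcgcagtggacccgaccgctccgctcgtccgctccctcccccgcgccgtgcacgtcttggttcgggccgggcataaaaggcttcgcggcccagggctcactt
PRDX3 (chr10:119178813-119178962, minus strand): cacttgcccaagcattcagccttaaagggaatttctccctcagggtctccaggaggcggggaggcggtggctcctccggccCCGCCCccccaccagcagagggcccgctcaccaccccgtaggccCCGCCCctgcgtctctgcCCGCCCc
PRDX4 (chrX:23667343-23667492, plus strand): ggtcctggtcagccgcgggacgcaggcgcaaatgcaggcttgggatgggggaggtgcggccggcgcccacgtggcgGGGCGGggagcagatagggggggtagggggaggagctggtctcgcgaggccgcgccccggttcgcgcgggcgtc
TXN (chr9:110256508-110256657, minus strand): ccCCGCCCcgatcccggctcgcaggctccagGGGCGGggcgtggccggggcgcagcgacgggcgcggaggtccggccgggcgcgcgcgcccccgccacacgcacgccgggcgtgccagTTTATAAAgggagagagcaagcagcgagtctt
In these stretches PRDX3 held 3 GC boxes, TXN 2, and PRDX2 and PRDX4 1 each, and the overlapping TATA box matches of TXN lay on both strands. A letter match is a description, and the absence of one says only that these letters are not in these windows.

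The genes around the 10 in the same chemistry were read from 3 lists. Partners of thioredoxin and peroxiredoxin were higher in 17 and lower in 5 of 24 tested cases on the TMM scale (6 higher and 13 lower with library totals, 14 higher and 4 lower after length correction), with a median log2 fold change of 0.48 and of 0.30 after length correction. Over all tested genes 38.0% were higher and 39.7% lower on the TMM scale, 17.0% and 65.5% with library totals, and 33.6% and 34.6% with length taken out, and these shares are the background for all 3 lists. The largest rises were those of MSRB1, a selenium-containing methionine sulfoxide reductase, and TXNDC17, a small thioredoxin-like protein. MSRB1 had 72.41 and 72.27 CPM in RIP, against 12.02 and 13.88 CPM in input (5.59-fold, edgeR adjusted p = 2.94e-12). TXNDC17 had 213.2 and 211.3 CPM in RIP, against 47.63 and 51.40 CPM in input (4.29-fold, edgeR adjusted p = 1.87e-12). Both stayed high after length correction, at 1.62 and 1.69 on the log2 scale, above PRDX5 on the same scale.

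The 4 most abundant members of that list had smaller changes on the TMM scale. P4HB and PDIA3, disulfide isomerases of the endoplasmic reticulum, had log2 fold changes of 0.62 and 0.40 on the TMM scale and of -0.11 (edgeR adjusted p = 0.11) and -0.33 with library totals. TXNDC5, another isomerase, was at 0.71 on the TMM scale and -0.02 (edgeR adjusted p = 0.741) with library totals. RRM1, the large subunit of ribonucleotide reductase, which thioredoxin can reduce, was at 0.43 and -0.30 on these 2 scales. After length correction all 4 were called higher, with P4HB at 0.44, PDIA3 at 0.45, RRM1 at 0.53 and TXNDC5 at 0.83, where PRDX5 was at 0.73. SESN3, a sestrin, fell by 1.92 on the log2 scale and the p53-responsive reductase subunit RRM2B by 0.99, both longer than the median gene, and after length correction they were at -0.70 and -0.37.

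Some partners are of interest for their role and were picked after their values were seen. TXNRD2, the mitochondrial thioredoxin reductase, had a log2 fold change of 1.11, and the cytosolic reductase TXNRD1 was at -0.19 (edgeR adjusted p = 0.0154), which turned to 0.17 after length correction (adjusted p = 0.0399). SRXN1, the sulfiredoxin that repairs over-oxidised peroxiredoxins, rose by 1.14 on the log2 scale and was at 1.02 after length correction. CCS, which loads copper into SOD1, rose by 1.03, and with length taken out its log2 fold change was -0.14 (adjusted p = 0.202). TXNIP, which binds and blocks thioredoxin, had a log2 fold change of 0.05 (edgeR adjusted p = 0.641). SOD3, the extracellular dismutase, was listed at 0 FPKM in both groups and was not tested.

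Genes of the glutathione system and catalase were higher in 21 and lower in 5 of 26 tested cases on the TMM scale (13 higher and 7 lower with library totals, 12 higher and 9 lower after length correction), with a median log2 fold change of 0.89 and of 0.14 after length correction. The background on the TMM scale was 38.0% higher and 39.7% lower, but the median member of the list was short, at 0.415 times the median tested gene, and in the length decile that holds this value 71.1% of all genes were higher. The count of 5 lower became 2 without the second RIP library. GPX1, the main cytosolic glutathione peroxidase, exceeded all 10 antioxidant genes in fold change and, in RIP, in CPM: it had 1205.1 and 1179.2 CPM in RIP, against 191.7 and 223.1 CPM in input (5.75-fold, edgeR adjusted p = 1.19e-12). After length correction it was at 1.24. GPX4, which reduces lipid peroxides, rose 3.32-fold, GPX3, a secreted peroxidase, 3.60-fold, the glutathione transferase GSTP1 3.03-fold and the glutaredoxin GLRX3 2.04-fold. After length correction GPX3, GPX4 and GSTP1 were at 1.26, 0.47 and 0.37, and GLRX3 was no longer called (0.14, edgeR adjusted p = 0.146). GPX8 fell by 0.64 on the log2 scale. GPX2 had 3 fragments in each RIP library, against 13 and 16 in input, and its call was lost without the second RIP library (edgeR adjusted p = 0.0504) and with DESeq2 (adjusted p = 0.0601). GPX1, GPX2, GPX3, GPX4, MSRB1 and the thioredoxin reductases are selenoproteins, which read a stop codon as selenocysteine. Of these, GPX2 and TXNRD1 were lower in RIP on the TMM scale (TXNRD1 not after length correction, at 0.17), and none of the 10 genes is among them.

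The third list held NRF2, its regulators, and genes of iron storage and NADPH supply. It was higher in 16 and lower in 6 of 24 cases on the TMM scale (12 higher and 9 lower with library totals, 12 higher and 7 lower after length correction), with a median of 0.89 and of 0.21 after length correction. Of all tested genes 38.0% were higher and 39.7% lower on the TMM scale, 17.0% and 65.5% with library totals, and 33.6% and 34.6% with length taken out. The median member of this list was at 0.785 times the length of the median tested gene. In the length decile that holds this value, 50.5% of all genes were higher and 21.5% lower on the TMM scale. TKT and PGD, enzymes of the pentose phosphate pathway, rose 1.99-fold and 2.14-fold and were at 0.63 and 0.62 after length correction. PARK7, a redox-sensitive protein with a mRNA as short as that of PRDX4, rose 2.72-fold and the biliverdin reductase gene BLVRB 2.94-fold, with 0.17 and 0.23 after length correction. The transcriptional repressor gene BACH1 fell by 1.04 on the log2 scale and NFE2L1, a relative of NRF2, by 0.83, and both were still lower after length correction, at -0.64 and -0.22.

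The 2 ferritin chains, short mRNAs like the 10 genes, went apart. The light chain gene FTL had 536.9 and 542.7 CPM in RIP, against 203.6 and 239.9 CPM in input, a 2.43-fold rise that was gone after length correction (-0.03, edgeR adjusted p = 0.757). The heavy chain gene FTH1, picked after its value was seen, averaged 93.11 CPM in RIP and 139.4 CPM in input. It fell by 0.58 on the log2 scale and, with length taken out, by 1.56 (edgeR adjusted p = 3.97e-10). FTH1 was as short as SOD2, at 0.383 times the median length, and on the TMM scale it fell while SOD2 rose (with library totals both were lower).

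**Figure D4:**
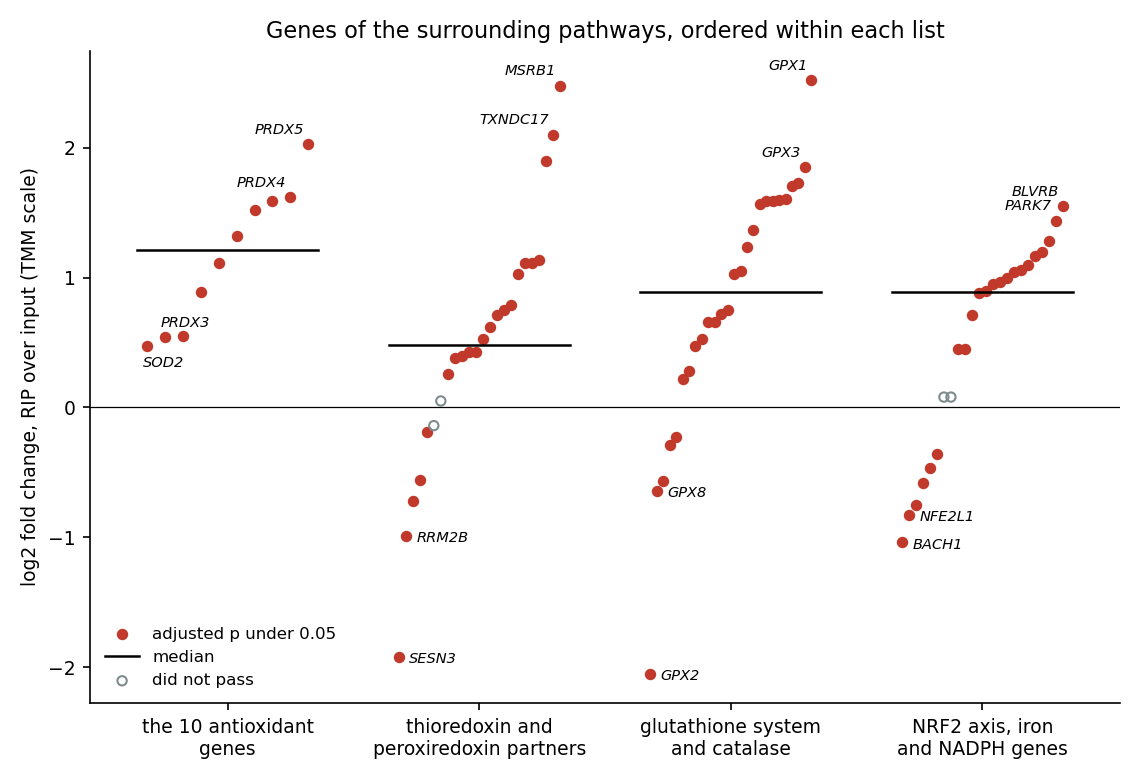
Log2 fold change of RIP over input on the TMM scale for the 10 antioxidant genes and the tested genes of the 3 pathway lists, ordered by value within each list; filled points had an edgeR adjusted p under 0.05 and black bars are medians, with the 2 highest and 2 lowest genes named. The 10 genes all lie above 0 on this scale (PRDX3, PRDX6 and SOD2 do not with library totals), while each of the lists holds genes on both sides, from SESN3 and GPX2 up to MSRB1 and GPX1.

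Genes whose profile over the 4 libraries was closest to the median profile of the 10 were PSMB1, SNRPC, MRPL15, PPP1R16A and CYB5D2, at Euclidean distances of 0.0145 to 0.0230 in centred log2 CPM. With 4 libraries in 2 groups this likeness is mostly a like fold change, between 1.21 and 1.23 on the log2 scale for these 5 genes. Their lengths ran from 0.267 (PSMB1) to 0.772 (PPP1R16A) times the median, and after length correction they were between -0.06 and 0.89.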

How the data were processed

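The tools named in the submitters' processing notes are Cuffdiff 2.2.1, TopHat2 2.0.13, Bowtie2 2.2.6 and cutadapt 1.5, with build hg19. Annotation, strand setting and multi-read handling were not given in the sources used here. The authors deposited estimated counts of fragments per gene, before scaling, 97.94% of them whole, which were rounded here. The deposited scaled signal is those fragments over 1 factor per library, and served only to read effective lengths. The FPKM values are the authors' own, per the file headers, and carry that scaling between libraries. PRDX1, for example, had a log2 fold change of 0.91 on log2(FPKM + 1), 0.89 on the TMM scale and 0.16 with library totals. The table numbers replicates from 0, and 0 was taken as replicate 1. Genes passing filterByExpr (minimum count 10, total 15) were tested with edgeR 4.0.16 (R 4.3.3): TMM, glmQLFit and glmQLFTest, group as the only term, Benjamini-Hochberg over 14555 genes. The standard error is the log2 fold change over the square root of F. The length trend was a lowess curve (span 0.3) used as an offset. DESeq2 1.42.0 and limma 3.58.1 on log2(FPKM + 1) and log2(FPKM + 0.1) were alternatives. The test was also run on simulated counts in which few genes were changed and no length trend was put in. That run does not bear on the choice of scale or on the length correction. Members, lists and tests were chosen with earlier results of these data known. Beside the 10 genes, the text names from each list the 4 most abundant tested genes and the 2 largest changes in each direction, plus the 5 closest profiles among genes with a mean count of at least 50 (log2 of CPM + 0.5). Genes named outside this rule are marked as such or are neighbours, markers or SIRT7. One list symbol, SEPX1, was matched to MSRB1 through RefSeq. Coordinates of genes are not printed, because the gene table given is of another build than the files.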

Additional observations from a re-analysis of the deposited data

How the results depend on the processing

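The 10 genes were compared under 12 alternatives, and only library totals and the length correction changed a call or direction among them. With library totals 3 of the 10 were lower: PRDX3 (-0.19), PRDX6 (-0.18) and SOD2 (-0.26), all as log2 fold changes. On that scale 2481 of all genes were higher and 9539 lower, thioredoxin and peroxiredoxin partners were 6 higher and 13 lower, 13 glutathione genes were higher, and P4HB (-0.11), PDIA3 (-0.33), RRM1 (-0.30) and TXNDC5 (-0.02) turned negative. With the length correction 4 of the 10 were higher and 2 lower: PRDX1 (-0.28), PRDX2 (-0.08), PRDX3 (-0.16), PRDX6 (-0.10) and SOD2 (-0.53) turned negative, and SOD1 (0.09) lost its call. Of the glutathione genes 12 were then higher and 9 lower, and FTL (-0.03) and PSMB1 (-0.06) turned negative. DESeq2 called 3 glutathione genes lower. Leaving out 1 library gave 2 to 5 of these, with 2 without the second RIP library, and 10 of the 10 antioxidant genes higher each time. The summed share in RIP was 0.455% without the 10 most abundant genes and 0.415% without SIRT7. The cause of these changes was not tested.

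Replicate numbers were not treated as pairs. Over the tested genes, the difference between the 2 RIP libraries had a correlation of 0.0532 with that between the 2 input libraries. With the replicate number as a block, 10 of the 10 genes were higher, and over all genes 5580 were higher and 5862 lower. Depth was ample for the 10 genes, the lowest count being 1704 fragments (SOD2 in input), so the 2 libraries per group limit precision more than counting does.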
